A study of Homo sapiens with 12 samples.

Results

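PANC1 is an established human line of pancreatic ductal adenocarcinoma, poorly differentiated and with mesenchymal traits. RNA from PANC1 cells embedded in 7.5% gelatin methacryloyl (GelMA) was compared with RNA from PANC1 cells embedded in 5% GelMA, with 2 poly-A libraries in each group. Genes entered the comparison when they reached 1 RPKM (a read count scaled to gene length and library size) in at least 2 of these 4 libraries, which held for 14220 of the 16299 genes in the table. The table has 8 more libraries, namely PANC1 in collagen and the line BXPC3 in 7.5% GelMA, 5% GelMA and collagen, again with 2 per group. Both lines were grown in high-glucose DMEM with foetal bovine serum and antibiotics, and no drug, gene edit or other treatment is named for any group. The sources used here do not give stiffness, cell density, days in the gel or whether replicates came from separate cultures, so p-values measure the spread between libraries, which could be technical only.

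GelMA is gelatin, a denatured collagen that still carries sites for integrins, bearing methacryloyl groups through which light or a radical initiator links the chains into a gel. A more concentrated gel has more polymer per volume and is in general stiffer and denser. Pancreatic ductal adenocarcinoma is known for a dense fibrous stroma, low oxygen and poor supply of nutrients. Among the programmes followed here, interferons act through JAK kinases and STAT factors on genes of antiviral defence. Low oxygen stabilises hypoxia-inducible factors, which induce glycolytic enzymes and angiogenic factors. SREBP factors drive sterol and fatty acid synthesis, and ATF4 drives the uptake and synthesis of amino acids.

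The replicates lay close together. Across genes they correlated at 0.9963 in 7.5% GelMA and at 0.9966 in 5% GelMA, and the SD of their difference was 0.185 log2 in 7.5% GelMA and 0.176 log2 in 5% GelMA. The deposited values are log2 RPKM that had been brought to a common distribution, so that depth is unknown and a change shared by most genes would not be visible. Of 7 markers chosen for PANC1, SMAD4, VIM, CDH2 and ZEB1 fitted the line label, with higher levels in PANC1 than in BXPC3. The keratins KRT8 and KRT18 were high in both lines. KRT7 was at 2.46 to 2.75 log2 RPKM in the 4 GelMA libraries of PANC1, against 10.24 to 10.74 in BXPC3. SMAD4, which is deleted in BXPC3, was at 3.94 to 4.27 log2 RPKM in the 4 GelMA libraries of PANC1 and at -5.92 to -5.35 in BXPC3. VIM, the mesenchymal filament protein vimentin, was at 11.65 to 11.93 in PANC1 and at 5.0 to 5.8 in BXPC3. Of 10 immune markers, 4 were in the table and 2 passed the filter, with summed levels of 10.3 and 9.73 RPKM in 7.5% GelMA and 11.6 and 10.2 RPKM in 5% GelMA. None of the 7 endothelial or 8 acinar and endocrine markers passed it. The fibroblast and stellate markers summed to 364 and 427 RPKM in 7.5% GelMA against 224 and 229 RPKM in 5% GelMA, and COL1A1 made up nearly all of this, while PDGFRA was at -3.91 and -3.85 log2 RPKM in 7.5% GelMA and -3.34 and -3.17 in 5% GelMA. The part of such cells in the results was not tested.

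In 7.5% GelMA, PANC1 cells had lower RNA levels of interferon response genes, of hypoxia and glycolysis genes and of lipid synthesis genes than in 5% GelMA, and higher levels of amino acid response genes. Of the 14220 genes, limma called 2783 at an adjusted p under 0.05, which is 19.6% of them. Of these, 1362 (9.58%) were higher and 1421 (9.99%) lower in 7.5% GelMA. Most changes were small. The median size among called genes was 0.34 log2, 83 genes (0.584%) were called and at least 2-fold higher, and 148 (1.04%) were called and at least 2-fold lower. Over all 14220 genes the log2 difference (7.5% minus 5%) had a median of 0.01 and quartiles of -0.13 and 0.14, and it ran from -4.84 to 2.43. The 2 libraries of each group did not overlap for 9770 genes (68.7%). Leaving out a single library lowered the count of called genes to 1595 without 7.5% GelMA replicate 1, 1466 without 7.5% GelMA replicate 2, 1454 without 5% GelMA replicate 1 and 1305 without 5% GelMA replicate 2. There were 1032 genes called with all 12 libraries and in each of these 4 fits.

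**Figure D1:**
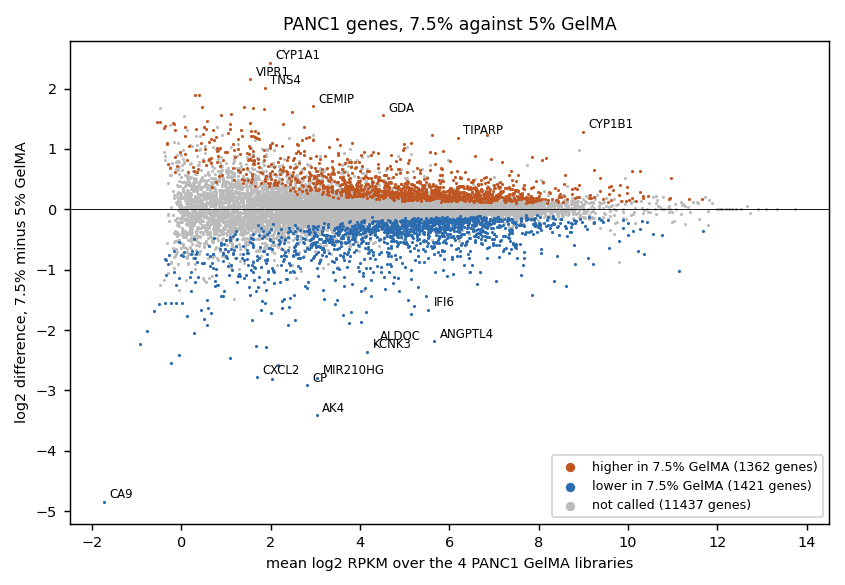
Each point is a gene of the comparison, placed by its mean log2 RPKM over the 4 PANC1 GelMA libraries (horizontal axis) and its log2 difference, 7.5% minus 5% GelMA (vertical axis); orange points were called higher, blue points lower, and grey points were not called. The called genes number 1362 and 1421, and the changes beyond 2 log2 lie mostly below 0, with CA9 at -4.84 and CYP1A1 at 2.43 as the ends of the range. CA9 reached 1 RPKM in the 5% GelMA libraries alone.

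Protein-coding genes made up 12326 of the 14220, and 21% of them were called. The shares were 8.33% of 564 antisense genes and 8.11% of 456 lincRNA genes. Of the 14220, 13792 genes reached 1 RPKM in all 4 libraries. A further 73 genes passed through the 7.5% libraries alone and 84 through the 5% libraries alone, of which 26 and 36 were called, and their differences follow in part from that filter. ANKRD1 is among the 73 and CA9 among the 84. At the edge of the filter, the second highest of the 4 values was 0.001 log2 RPKM for NID2, just inside, and -0.001 for HS3ST3B1, just outside.

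Among called protein-coding and long non-coding genes that averaged at least 3 RPKM in either gel, AK4 fell most. AK4, a mitochondrial adenylate kinase that balances adenine nucleotides (ENSG00000162433, GRCh38 chromosome 1, 65147549 to 65232145), was at 1.20 and 1.44 log2 RPKM in 7.5% GelMA, against 4.74 and 4.73 in 5% GelMA, and its difference was -3.41 ± 0.19 log2 (SE, adjusted p = 6.67e-06). Reads of AK4 and of its processed pseudogenes AK4P1 and AK4P3 could be exchanged, and AK4P3 differed by -2.81 log2. CP, the copper-carrying ferroxidase ceruloplasmin, was at 1.46 and 1.26 in 7.5% GelMA, against 4.18 and 4.37 in 5% GelMA (-2.91 ± 0.24, adjusted p = 5.13e-05). MIR210HG, the host transcript of a microRNA induced by low oxygen, was at 1.68 and 1.61 in 7.5% GelMA, against 4.53 and 4.35 in 5% GelMA (-2.79 ± 0.17, adjusted p = 1.25e-05). In these genes the replicates lay within 0.25 log2 of each other and the groups were far apart.

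CXCL2, a chemokine that attracts neutrophils, was at 0.42 and 0.19 log2 RPKM in 7.5% GelMA, against 3.18 and 3.01 in 5% GelMA (-2.78 ± 0.17, adjusted p = 1.34e-05). PPFIA4, a liprin scaffold protein, was at 1.09 and 0.67 in 7.5% GelMA, against 3.43 and 3.49 in 5% GelMA (-2.58 ± 0.26). PPP1R3G, a glycogen-targeting subunit of a protein phosphatase, was at -0.42 and 0.12 in 7.5% GelMA, against 2.15 and 2.49 in 5% GelMA (-2.47 ± 0.22). The groups did not overlap in any of these genes either. That was a condition of being named here, and it held for 68.7% of all genes. The remaining large falls were those of the glutamine carrier SLC38A3 (-2.29 ± 0.36), the ADP-ribosyltransferase ART5 (-2.27 ± 0.29), the glycolytic aldolase ALDOC (-2.23 ± 0.15), the lipase inhibitor ANGPTL4 (-2.19 ± 0.16) and IFITM10 (-1.92 ± 0.12), a relative of the antiviral membrane proteins. The potassium channel gene KCNK3 was at 2.86 and 3.10 in 7.5% GelMA, against 5.26 and 5.42 in 5% GelMA (-2.36 ± 0.69, adjusted p = 0.0384). The SE rests on the spread over all 12 libraries, and KCNK3 was at -6.85 to -3.58 log2 RPKM in BXPC3. In fits on PANC1 libraries alone KCNK3 kept its call. Its call was lost without 7.5% GelMA replicate 1 or 2 (adjusted p = 0.149 and 0.123) and without 5% GelMA replicate 1 or 2 (adjusted p = 0.126 and 0.158).

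CYP1A1, a detoxifying monooxygenase induced by the aryl hydrocarbon receptor (ENSG00000140465, GRCh38 chromosome 15, 74719542 to 74725610), rose most in the comparison. It was at 3.18 and 3.23 log2 RPKM in 7.5% GelMA, against 1.13 and 0.42 in 5% GelMA, and its difference was 2.43 ± 0.28 log2 (adjusted p = 0.000314). VIPR1, a receptor for vasoactive intestinal peptide, was at 2.45 and 2.80 in 7.5% GelMA, against 0.76 and 0.18 in 5% GelMA (2.15 ± 0.20, adjusted p = 0.000108). TNS4, a tensin that binds integrin tails, was at 3.14 and 2.61 in 7.5% GelMA, against 1.13 and 0.59 in 5% GelMA (2.01 ± 0.20, adjusted p = 0.000178). In all 3 genes the lowest library in 7.5% GelMA lay more than 1 log2 above the highest in 5% GelMA. These genes are of low level, and on a log2(RPKM + 1) scale the differences were 1.90 for CYP1A1, 1.58 for VIPR1 and 1.56 for TNS4.

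CEMIP, which takes part in the breakdown of hyaluronan, was at 3.87 and 3.71 log2 RPKM in 7.5% GelMA, against 2.10 and 2.07 in 5% GelMA (1.71 ± 0.10, adjusted p = 8.08e-06). GDA, the guanine deaminase of purine salvage, was at 5.26 and 5.31 in 7.5% GelMA, against 3.77 and 3.68 in 5% GelMA (1.56 ± 0.12, adjusted p = 4.34e-05). Other large rises were those of PPP1R16B, a phosphatase regulator (1.70 ± 0.27), LINC00622 (1.69 ± 0.30), PARM1 (1.67 ± 0.26), FGFBP1, which frees fibroblast growth factors from the matrix (1.57 ± 0.29), and TNFRSF9, a costimulatory receptor (1.57 ± 0.17). LINC00622 and PARM1 had spread replicates in 5% GelMA, at 1.34 and 0.20 and at 0.71 and 1.32 log2 RPKM. ENTREP2 (1.61 ± 0.31) and the ephrin receptor gene EPHB1 (1.42 ± 0.28) completed the 12 largest rises. That ranking covers called protein-coding and long non-coding genes whose groups did not overlap and that averaged at least 3 RPKM in either gel. The limit on level leaves out ANKRD1. The call of ENTREP2 was lost without 5% GelMA replicate 2 (adjusted p = 0.0509), and that of EPHB1 without 7.5% GelMA replicate 2 (adjusted p = 0.0552) or 5% GelMA replicate 1 (adjusted p = 0.0536).

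**Figure D2:**
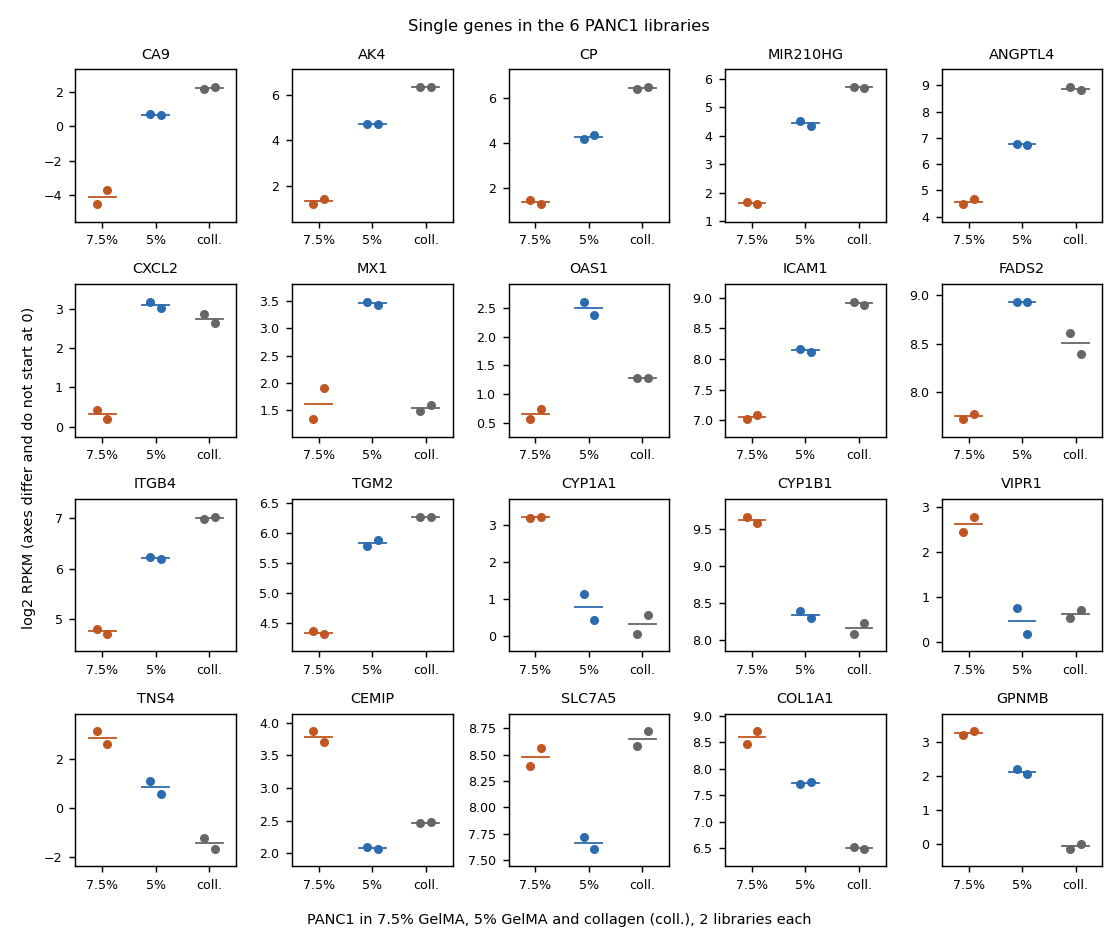
Log2 RPKM of 20 named genes in each PANC1 library, with 7.5% GelMA (orange), 5% GelMA (blue) and collagen (grey) from left to right; points are libraries and bars are the means of the 2 libraries. The groups in 7.5% and 5% GelMA do not overlap in any of these genes, for example AK4 at 1.20 and 1.44 against 4.74 and 4.73. The same holds for 68.7% of all genes, and for some of the genes shown it was a condition of being named.

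Interferon response genes were lower in 7.5% GelMA. Of the 55 genes of this list in the comparison, 45 were called lower and 0 higher, with a median log2 difference of -0.64, against 0.01 over all genes and 9.99% of all genes called lower. The groups did not overlap in 52 of the 55, as in 68.7% of all genes. The median level of the list was 3.96 log2 RPKM in 7.5% GelMA, 4.69 in 5% GelMA and 3.85 in collagen. The list in 7.5% GelMA therefore lay near its level in collagen, and 5% GelMA lay above both, which was not tested. Between 31 and 39 members were called lower when any 1 of the 4 GelMA libraries was left out. Because each library pools many cells, fewer responding cells and less RNA per cell cannot be told apart.

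The largest change in the list was that of MX1, a GTPase that blocks the entry and replication of viruses. It was at 1.34 and 1.90 log2 RPKM in 7.5% GelMA, against 3.49 and 3.43 in 5% GelMA (-1.84 ± 0.20, adjusted p = 0.000267). OAS1, which makes the oligoadenylates that switch on RNase L, was at 0.57 and 0.75 in 7.5% GelMA, against 2.61 and 2.38 in 5% GelMA (-1.83 ± 0.11, adjusted p = 8.39e-06). IFI6, an antiviral protein of internal membranes, was at 4.63 and 4.77 in 7.5% GelMA, against 6.40 and 6.32 in 5% GelMA (-1.66 ± 0.13, adjusted p = 3.92e-05). In each of these genes the groups were more than 1 log2 apart. BST2, which tethers budding virus particles (-1.43 ± 0.10), XAF1, a promoter of apoptosis (-1.43 ± 0.10), and IFITM1, a membrane protein that hinders virus fusion (-1.17 ± 0.18), fell by more than 1 log2 as well. IFITM1, IFITM2 and IFITM3 are close paralogs whose reads could be exchanged.

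Some members had more spread within 7.5% GelMA. IFIT1, which binds RNA lacking a host cap, was at 4.53 and 5.09 log2 RPKM in 7.5% GelMA, against 5.69 and 5.62 in 5% GelMA (-0.84 ± 0.17, adjusted p = 0.00736). OASL, a relative of the OAS enzymes, was at 3.81 and 4.45 in 7.5% GelMA, against 5.22 and 5.10 in 5% GelMA (-1.03 ± 0.16). In IFIT1, IFIT2, IFIT3, OAS2 and OASL, 7.5% GelMA replicate 1 was the lowest of the 4 libraries. RSAD2, the antiviral enzyme viperin, showed the widest spread, at -2.18 and 0.50 in 7.5% GelMA, against 0.26 and 0.18 in 5% GelMA and was not called (-1.06 ± 0.63, adjusted p = 0.282). ISG15, a ubiquitin-like modifier, was at 4.68 and 4.99 in 7.5% GelMA, against 5.24 and 5.20 in 5% GelMA (-0.39 ± 0.12, adjusted p = 0.0412). Its call was lost without 7.5% GelMA replicate 1 (adjusted p = 0.254), 5% GelMA replicate 1 (0.163) or 5% GelMA replicate 2 (0.13). The members that were not called also include MX2 (-0.06), TRIM25 (-0.07), USP18 (-0.11) and LAMP3 (0.39).

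Interferon-activated factors bind the interferon-stimulated response element (ISRE), searched here as GAAA, any 2 bases and GAAA on both strands of RefSeq promoter windows that run from 250 bases before a gene's start to 50 after it (GRCh38.p14). The motif was present in 996 of 27305 first promoters (3.65%) and in 279 of 10626 promoters of genes in the comparison (2.63%). Among the interferon response genes with a promoter window, it was present in 26 of 43 (60.5%), and all 26 belong to genes called lower. Neither share was tested. The windows of the 4 members with the largest falls among those that hold the motif are shown because the element is the known route of induction of many genes of the list. Matches are in capitals and each window is read in the direction of its gene.
MX1, chr21:41420308-41420607, plus strand: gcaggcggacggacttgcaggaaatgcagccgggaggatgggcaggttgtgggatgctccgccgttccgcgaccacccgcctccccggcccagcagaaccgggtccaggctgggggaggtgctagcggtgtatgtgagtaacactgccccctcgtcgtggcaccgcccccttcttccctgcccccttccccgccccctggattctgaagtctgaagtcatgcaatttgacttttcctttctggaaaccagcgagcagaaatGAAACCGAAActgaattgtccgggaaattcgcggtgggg
IFI6, chr1:27672143-27672442, minus strand: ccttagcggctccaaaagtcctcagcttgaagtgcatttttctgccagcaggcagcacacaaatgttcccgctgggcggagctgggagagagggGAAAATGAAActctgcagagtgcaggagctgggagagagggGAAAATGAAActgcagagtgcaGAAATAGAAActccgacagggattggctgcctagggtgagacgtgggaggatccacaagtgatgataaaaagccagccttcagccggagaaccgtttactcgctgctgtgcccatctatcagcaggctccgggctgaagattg
BST2, chr19:17405581-17405880, minus strand: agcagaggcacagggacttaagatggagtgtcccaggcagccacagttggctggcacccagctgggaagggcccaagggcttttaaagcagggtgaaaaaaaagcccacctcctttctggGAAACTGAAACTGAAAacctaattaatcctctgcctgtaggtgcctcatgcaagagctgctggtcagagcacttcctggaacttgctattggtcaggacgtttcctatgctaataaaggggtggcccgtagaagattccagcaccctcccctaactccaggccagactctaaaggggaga
IFITM1, chr11:313790-314089, plus strand: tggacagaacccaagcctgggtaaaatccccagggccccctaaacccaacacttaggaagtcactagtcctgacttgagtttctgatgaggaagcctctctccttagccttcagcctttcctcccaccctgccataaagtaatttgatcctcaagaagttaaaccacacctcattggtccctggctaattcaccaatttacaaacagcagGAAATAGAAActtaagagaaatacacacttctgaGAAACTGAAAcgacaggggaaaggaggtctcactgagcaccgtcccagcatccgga
MX1 has 1 match, just after its start, IFI6 has 3, IFITM1 has 2, and BST2 has 2 that overlap. A match describes these letters only.

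Upstream of these genes, receptors were not called and several factors were lower. The share of the list called was 37.5%, against 19.6% of all genes. Of 24 interferon sensing and signalling genes, 9 were called lower and 0 higher, with a median of -0.09, and 5 or 6 were called lower when any 1 of the 4 GelMA libraries was left out. The receptor genes IFNAR1 (0.01), IFNGR1 (-0.01) and IFNGR2 (0.03), the kinase gene JAK1 (0.02) and the DNA sensor CGAS (0.09) were not called. SOCS3, a feedback inhibitor of JAK kinases, was at 5.40 and 5.33 log2 RPKM in 7.5% GelMA, against 6.40 and 6.34 in 5% GelMA (-1.01 ± 0.05, adjusted p = 6.6e-06). IRF1, a transcription factor of the response, was at 5.32 and 5.38 in 7.5% GelMA, against 5.99 and 5.96 in 5% GelMA (-0.63 ± 0.04, adjusted p = 2.49e-05). STING1, an adaptor of cytosolic DNA sensing (-0.54 ± 0.06), and STAT3 (-0.27 ± 0.03) fell too.

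Of 19 genes of class I antigen presentation, 9 were called lower and 0 higher, with a median of -0.35, against 9.99% of all genes called lower. ERAP2, an aminopeptidase that trims peptides in the endoplasmic reticulum, was at 4.35 and 4.25 log2 RPKM in 7.5% GelMA, against 5.01 and 5.02 in 5% GelMA (-0.72 ± 0.04, adjusted p = 8.08e-06). The immunoproteasome subunits PSMB8 (-0.56 ± 0.05) and PSMB9 (-0.54 ± 0.08) fell. The heavy chain genes HLA-B (-0.39, adjusted p = 0.0902) and HLA-C (-0.10) and the light chain gene B2M (-0.16) were not called, but B2M was called lower in a fit on the 4 PANC1 GelMA libraries alone (adjusted p = 0.0189). HLA genes are near-identical to each other and their values are uncertain where reads were shared.

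Among 17 chemokines and cytokines, 7 were called lower and 2 higher, against 9.99% and 9.58% of all genes, with a median of -0.64. Besides CXCL2, the T cell attractant CCL5 was at 0.90 and 0.98 log2 RPKM in 7.5% GelMA, against 2.68 and 2.53 in 5% GelMA (-1.67 ± 0.17). CXCL1, close kin of CXCL2, was at 5.94 and 5.93 in 7.5% GelMA, against 7.01 and 6.93 in 5% GelMA (-1.03 ± 0.19). ICAM1, a leukocyte adhesion receptor placed in this list, was at 7.02 and 7.08 in 7.5% GelMA, against 8.16 and 8.12 in 5% GelMA (-1.09 ± 0.05, adjusted p = 4.02e-06). The inflammasome cytokine IL18 (0.46 ± 0.13) and CXCL16 (0.34 ± 0.08) rose. CXCL8 (-0.06), LIF (0.01) and IL32 (0.04) were not called. CCL2 had the highest level of the list, at 9.30 and 9.42 in 7.5% GelMA and 10.21 and 10.26 in 5% GelMA, yet its difference of -0.87 ± 0.54 was not called (adjusted p = 0.303). The SE rests on the spread over all 12 libraries, and CCL2 was at -3.28 to -0.30 log2 RPKM in BXPC3. In a fit on the 4 PANC1 GelMA libraries alone CCL2 was called lower (adjusted p = 0.000212, and 9.45e-05 to 0.00231 over the 4 alternatives that call it). Of 19 NF-kB targets, 7 were called lower, led by NFKBIZ, a nuclear cofactor of NF-kB (-1.12 ± 0.07), and 2 higher, NFKB2 (0.18) and IRAK2 (0.24). On leaving out any 1 of the 4 GelMA libraries, 4 to 6 NF-kB targets were called lower and 0 to 2 higher, and 0 or 1 chemokine higher.

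Genes induced by low oxygen were lower in 7.5% GelMA than in 5% GelMA. Of 29 hypoxia response genes, 19 were called lower and 2 higher, against 9.99% and 9.58% of all genes, with a median log2 difference of -0.64. The median level was 4.52 log2 RPKM in 7.5% GelMA, 5.12 in 5% GelMA and 6.55 in collagen, a description without a test for collagen. Between 18 and 19 members were called lower when any 1 of the 4 GelMA libraries was left out. CA9, a carbonic anhydrase that exports acid and is a standard hypoxia marker (ENSG00000107159, GRCh38 chromosome 9, 35673856 to 35681159), was at -4.55 and -3.74 log2 RPKM in 7.5% GelMA, against 0.75 and 0.64 in 5% GelMA and 2.18 and 2.31 in collagen. Its difference was -4.84 ± 0.47 (adjusted p = 0.00015), but its level was below 1 log2 RPKM in either GelMA and the difference was -1.31 on the log2(RPKM + 1) scale. CA9 passed the filter through the 5% libraries alone, so its difference follows in part from that filter. ANGPTL4 was at 4.48 and 4.66 in 7.5% GelMA, against 6.77 and 6.74 in 5% GelMA.

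The kinases that direct glucose use followed. PFKFB4, which sets the level of an activator of glycolysis, was at 2.86 and 2.78 log2 RPKM in 7.5% GelMA, against 4.75 and 4.66 in 5% GelMA (-1.89 ± 0.17, adjusted p = 8.61e-05). PDK1, which inhibits pyruvate dehydrogenase, was at 2.67 and 2.80 in 7.5% GelMA, against 4.55 and 4.43 in 5% GelMA (-1.76 ± 0.11, adjusted p = 1.17e-05). The mitophagy receptor BNIP3L (-1.11 ± 0.07), the collagen prolyl hydroxylase P4HA1 (-1.10 ± 0.07) and the oxygen sensor EGLN1 (-0.76 ± 0.07) fell as well. VEGFA, the main angiogenic factor, was at 6.61 and 6.63 in 7.5% GelMA, against 7.09 and 7.05 in 5% GelMA and 9.13 and 9.36 in collagen (-0.45 ± 0.07, adjusted p = 0.0015). Several well-known hypoxia genes were not called. ADM (-0.07), DDIT4 (-0.03), MXI1 (-0.10) and EGLN3 (0.09) were not called although all were lower in either GelMA than in collagen, and the glucose transporter SLC2A1 (0.32 ± 0.09) and the glycoprotein hormone STC2 (0.49 ± 0.15), also a member of the amino acid response list, rose. At most 1 hypoxia gene was called higher when any 1 of the 4 GelMA libraries was left out. SLC2A3, another glucose transporter on the list, stayed under 1 RPKM in the 4 GelMA libraries and was outside the comparison.

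Hypoxia-inducible factors bind elements with the core ACGTG, searched on both strands of the same windows. This short motif was present in 5900 of 27305 first promoters (21.6%) and in 2841 of 10626 promoters of genes in the comparison (26.7%). It was present in 14 of 25 hypoxia response genes with a window (56%), among them 11 of the 16 called lower, 0 of the 2 called higher and 3 of the 7 not called. The windows of CA9 and PPFIA4, the members with the largest falls among those that hold the motif, are shown with matches in capitals. This search was added after the values were seen.
CA9, chr9:35673678-35673977, plus strand: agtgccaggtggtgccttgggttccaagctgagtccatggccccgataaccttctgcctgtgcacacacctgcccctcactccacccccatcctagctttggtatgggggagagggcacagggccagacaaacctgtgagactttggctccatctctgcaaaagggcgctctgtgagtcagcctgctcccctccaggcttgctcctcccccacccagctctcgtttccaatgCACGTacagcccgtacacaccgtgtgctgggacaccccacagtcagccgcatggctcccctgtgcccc
PPFIA4, chr1:203026241-203026540, plus strand: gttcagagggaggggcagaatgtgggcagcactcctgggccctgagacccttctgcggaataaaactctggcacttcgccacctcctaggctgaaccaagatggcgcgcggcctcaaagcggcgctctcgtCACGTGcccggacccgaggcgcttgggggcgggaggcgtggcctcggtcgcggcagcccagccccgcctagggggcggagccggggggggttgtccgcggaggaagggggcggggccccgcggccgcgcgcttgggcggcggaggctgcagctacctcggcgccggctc
In CA9 the match is on the opposite strand and therefore reads CACGT here. In PPFIA4 the 2 matches, 1 on each strand, overlap in a palindrome.

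Of 18 glycolysis genes, 14 were called lower and 0 higher, with a median of -0.54, against 9.99% of all genes called lower. The groups did not overlap in any of the 18, as in 68.7% of all genes. The count was 14 or 15 when any 1 of the 4 GelMA libraries was left out. PGK1, the phosphoglycerate kinase, was at 8.34 and 8.41 log2 RPKM in 7.5% GelMA, against 9.26 and 9.28 in 5% GelMA (-0.90 ± 0.13, adjusted p = 0.00131). LDHA, which makes lactate, was at 9.99 and 9.96 in 7.5% GelMA, against 10.72 and 10.72 in 5% GelMA (-0.74 ± 0.11), and SLC16A3, which exports lactate, was at 7.10 and 7.13 in 7.5% GelMA, against 7.91 and 7.92 in 5% GelMA (-0.80 ± 0.04, adjusted p = 6.26e-06). GAPDH, often used as a reference gene, fell by 0.37 log2 (SE 0.05). ENO1 (-0.20, adjusted p = 0.0512, and 0.00661 in a fit on the 4 PANC1 GelMA libraries alone), SLC16A1 (-0.15) and PFKM (-0.06) were not called. The shares called were 16.1% for nuclear genes of oxidative phosphorylation and 7.69% for mitochondrially encoded genes, against 19.6% of all genes. The mitochondrially encoded genes had a median level of 12.42 log2 RPKM in both gels. At such high ranks the common distribution sets the values, so their low share called does not show that they were unchanged. Of 31 nuclear genes of oxidative phosphorylation, 26 were not called, 4 were higher (0 or 1 with any 1 of the 4 GelMA libraries left out) and 1 lower, and of the 13 mitochondrially encoded genes 1 was called higher.

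**Figure D3:**
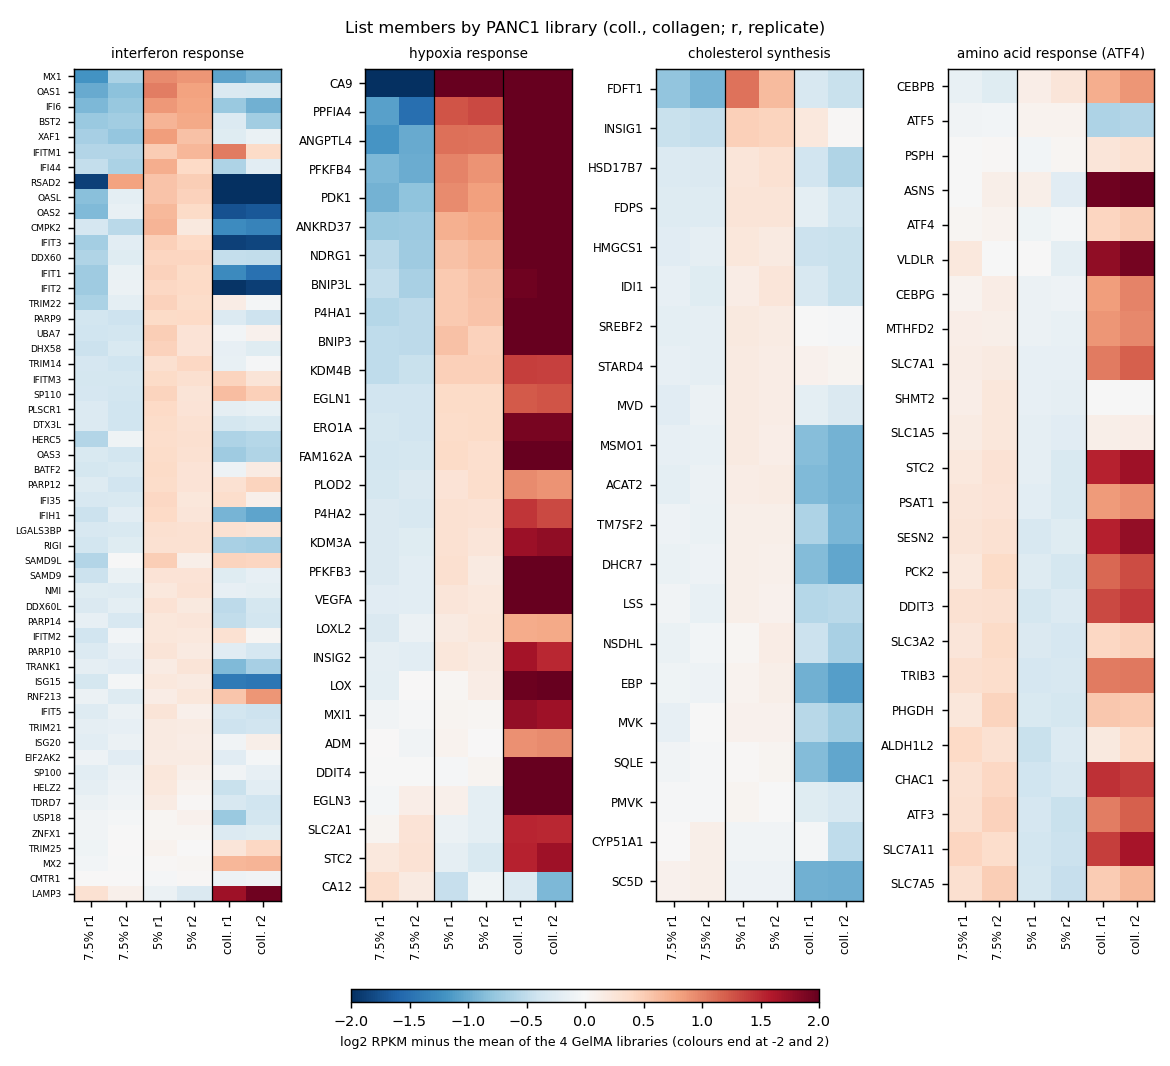
Each row is a gene of the named list (some cholesterol synthesis genes are not drawn), ordered by its log2 difference, and each column a PANC1 library in 7.5% GelMA, 5% GelMA or collagen; colour gives log2 RPKM minus the gene's mean over the 4 GelMA libraries. Most interferon, hypoxia and cholesterol genes are blue in 7.5% and red in 5% GelMA, and 17 of 24 amino acid response genes were called the other way.

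Genes of sterol and fatty acid synthesis fell together. The share of the cholesterol list called was 58.3%, against 19.6% of all genes. Of 24 cholesterol synthesis genes, 14 were called lower and 0 higher, with a median of -0.30, and 11 were called lower when any 1 of the 4 GelMA libraries was left out. FDFT1, the squalene synthase, was at 1.21 and 1.08 log2 RPKM in 7.5% GelMA, against 3.09 and 2.63 in 5% GelMA (-1.72 ± 0.19, adjusted p = 0.000299). INSIG1, the sterol-sensing brake of the pathway, was at 5.88 and 5.86 in 7.5% GelMA, against 6.81 and 6.77 in 5% GelMA (-0.92 ± 0.09). SREBF2, the factor that drives the pathway, fell by 0.37 log2 (SE 0.03) and the early enzyme HMGCS1 by 0.40 (SE 0.05). The later enzymes SQLE (-0.08) and SC5D (0.21) were not called.

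Of 15 fatty acid synthesis genes, 8 were called lower and 1 higher, against 9.99% and 9.58% of all genes, with a median of -0.44. The desaturase FADS2 was at 7.72 and 7.78 log2 RPKM in 7.5% GelMA, against 8.93 and 8.93 in 5% GelMA (-1.18 ± 0.09, adjusted p = 2.64e-05). SCD, which makes monounsaturated fatty acids, was at 10.63 and 10.61 in 7.5% GelMA, against 11.69 and 11.60 in 5% GelMA (-1.02 ± 0.16). FADS1 (-0.91 ± 0.08) and SREBF1, the factor that drives these genes (-0.81 ± 0.14), fell with them. SCD5, another desaturase, rose (0.53 ± 0.11), but its call was lost without 7.5% GelMA replicate 1 (adjusted p = 0.0546) or 5% GelMA replicate 1 (adjusted p = 0.0559). With any 1 of the 4 GelMA libraries left out, 6 genes of the list were called lower.

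Amino acid response genes were higher in 7.5% GelMA. Of 24 genes, ATF4 and its targets, 17 were called higher and 1 lower, against 9.58% of all genes called higher, with a median of 0.50. The median level was 5.96 log2 RPKM in 7.5% GelMA, 5.47 in 5% GelMA and 6.40 in collagen. Between 13 and 15 members were called higher when any 1 of the 4 GelMA libraries was left out. SLC7A5 and SLC3A2 encode the chains of the transporter for large neutral amino acids. SLC7A5 was at 8.40 and 8.57 in 7.5% GelMA, against 7.72 and 7.61 in 5% GelMA (0.82 ± 0.08, adjusted p = 0.000155), and SLC3A2 was at 7.63 and 7.77 in 7.5% GelMA, against 7.10 and 7.05 in 5% GelMA (0.63 ± 0.06). SLC7A11, which imports cystine for glutathione, was at 4.20 and 4.12 in 7.5% GelMA, against 3.40 and 3.34 in 5% GelMA (0.79 ± 0.15).

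The enzymes of serine synthesis rose with the carriers. PHGDH, which commits glucose carbon to serine, was at 6.05 and 6.27 log2 RPKM in 7.5% GelMA, against 5.52 and 5.47 in 5% GelMA (0.66 ± 0.09), and PSAT1, the next enzyme, rose by 0.51 ± 0.07. The stress factors ATF3 (0.78 ± 0.13) and DDIT3 (0.63 ± 0.08) and the glutathione-degrading enzyme CHAC1 (0.72 ± 0.13) rose too. ATF4 itself, which is controlled largely at translation, was at 8.79 and 8.82 in 7.5% GelMA, against 8.66 and 8.70 in 5% GelMA, and was not called (0.12 ± 0.04, adjusted p = 0.0943, and 0.0222 in a fit on the 4 PANC1 GelMA libraries alone). CEBPB was the member that fell (-0.38 ± 0.06), and ASNS, the asparagine synthetase, was at 0.10 ± 0.34.

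Small rises were counted among genes of the ribosome. Of 40 cytosolic ribosomal protein genes, 14 were called higher and 0 lower, with a median of 0.11. Of 20 ribosome biogenesis genes, 9 were called higher and 0 lower, with a median of 0.12. Over all genes, 9.58% were called higher. These counts depended on every library. Between 4 and 6 ribosomal protein genes and between 2 and 5 biogenesis genes were called higher when any 1 of the 4 GelMA libraries was left out. RPS19, a subunit protein whose loss causes anaemia in people, was at 7.71 and 7.71 log2 RPKM in 7.5% GelMA, against 7.46 and 7.46 in 5% GelMA (0.25 ± 0.04, adjusted p = 0.00207). Ribosomal protein genes have many processed pseudogenes with which reads could be exchanged. Of 12 heat shock genes, 6 were called higher, among them the chaperone HSPH1 (0.34 ± 0.05), and 2 lower, BAG3 (-0.26 ± 0.03) and HSPB1 (-0.21 ± 0.04). The call of HSPB1 was lost without 7.5% GelMA replicate 1 or 5% GelMA replicate 1. Of 20 genes of the unfolded protein response, 4 were called higher and 3 lower, against 9.58% and 9.99% of all genes. When any 1 of the 4 GelMA libraries was left out, 1 to 4 heat shock genes were called higher, and for the unfolded protein response 0 to 2 higher and 0 or 1 lower.

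**Figure D4:**
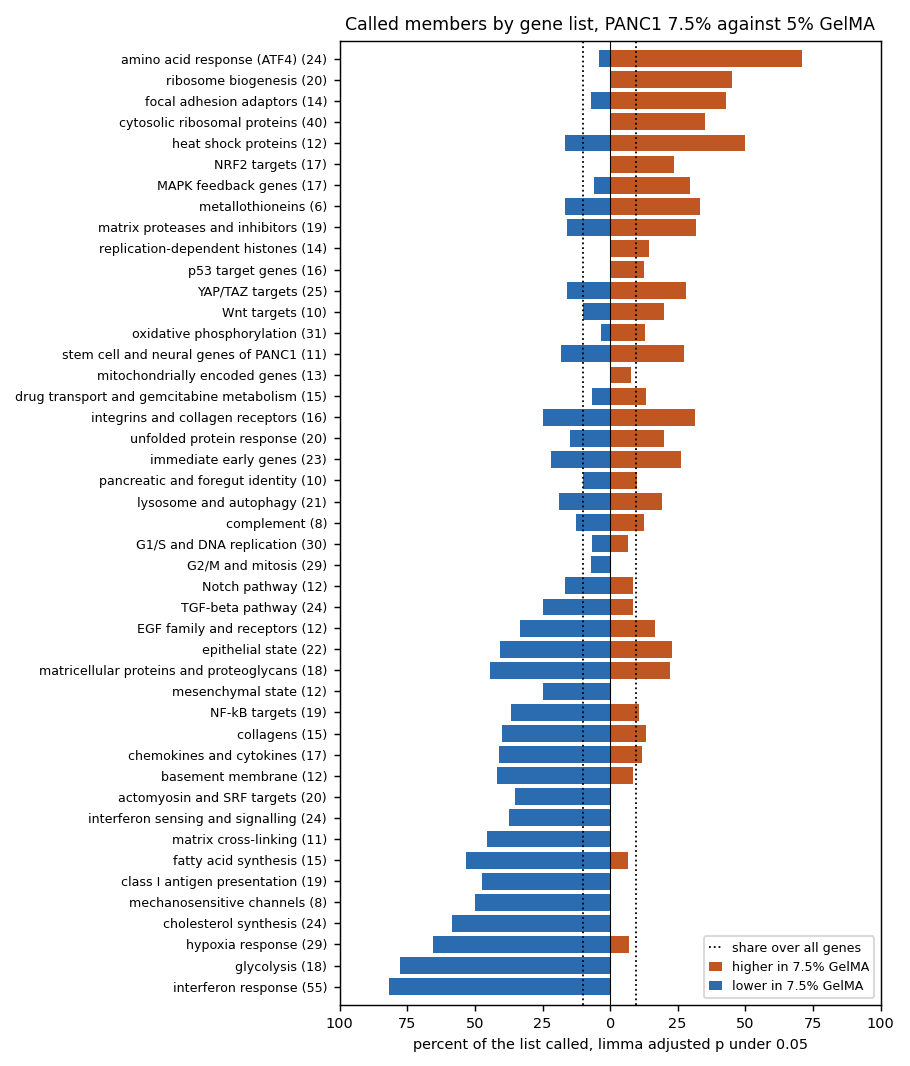
Bars give the percent of each list's genes called higher (orange, to the right) and lower (blue, to the left) in 7.5% GelMA, with the number of genes in parentheses; dotted lines mark the shares over all genes, 9.58% higher and 9.99% lower. The interferon response (45 of 55 lower) and the amino acid response (17 of 24 higher) stand at the ends.

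Matrix and adhesion genes moved in both directions. Of 15 collagen genes, 6 were called lower and 2 higher, against 9.99% and 9.58% of all genes. COL1A1, a chain of the main fibrillar collagen, was at 8.48 and 8.71 log2 RPKM in 7.5% GelMA, against 7.72 and 7.75 in 5% GelMA and 6.52 and 6.49 in collagen (0.86 ± 0.07, adjusted p = 4.35e-05). COL3A1, of another fibrillar collagen, was at 2.51 and 2.86 in 7.5% GelMA, against 3.49 and 3.58 in 5% GelMA and 5.62 and 5.84 in collagen (-0.85 ± 0.12, adjusted p = 0.00108). These fibrillar collagen genes differed in opposite directions. Of 11 matrix cross-linking genes, 5 were called lower and 0 higher, with a median of -0.40. TGM2, a transglutaminase that links matrix proteins, was at 4.36 and 4.31 in 7.5% GelMA, against 5.78 and 5.88 in 5% GelMA (-1.50 ± 0.08, adjusted p = 6.67e-06). P4HA1, PLOD2 and P4HA2, enzymes that hydroxylate collagen, are counted in this list and in the hypoxia list alike. With any 1 of the 4 GelMA libraries left out, 3 to 5 collagen genes were called lower and 1 higher.

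Of 18 matricellular proteins and proteoglycans, 8 were called lower and 4 higher, against 9.99% and 9.58% of all genes. TNC, the stromal glycoprotein tenascin C, was at 4.12 and 4.70 log2 RPKM in 7.5% GelMA, against 5.96 and 6.05 in 5% GelMA (-1.60 ± 0.24, adjusted p = 0.00147). The heparan sulphate proteoglycan SDC2 (-1.14 ± 0.15) and the hyaluronan synthase HAS2 (-0.78 ± 0.13) fell, while the synthase HAS3 (0.38 ± 0.06) and THBS1, an activator of latent TGF-beta (0.36 ± 0.04), rose. Of 12 basement membrane genes, 5 were called lower, with the laminin chain LAMA5 (-0.65 ± 0.07) among them, and 1 higher, LAMA3 (0.63 ± 0.09). Of 19 matrix proteases and inhibitors, 6 were called higher and 3 lower. The protease inhibitor SERPINE2 rose (1.07 ± 0.17), and the urokinase gene PLAU (0.31 ± 0.03) and its receptor PLAUR (-0.85 ± 0.09) differed in sign. On leaving out any 1 of the 4 GelMA libraries, 2 or 3 matricellular genes were called higher, 3 basement membrane genes lower, and 3 to 5 proteases and inhibitors higher with 1 to 3 lower.

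Among 16 integrins and collagen receptors, 5 were called higher and 4 lower, against 9.58% and 9.99% of all genes. ITGB4, the subunit that anchors epithelial cells to laminin, was at 4.81 and 4.72 log2 RPKM in 7.5% GelMA, against 6.23 and 6.19 in 5% GelMA and 6.98 and 7.03 in collagen (-1.44 ± 0.05, adjusted p = 1.36e-06). ITGA3, another laminin receptor subunit, fell by 0.44 log2 (SE 0.05). ITGA1, a collagen receptor subunit, was at 1.44 and 1.31 in 7.5% GelMA, against 0.28 and 0.45 in 5% GelMA (1.01 ± 0.17, adjusted p = 0.00341). ITGB1, the common partner of the collagen receptors (-0.12, adjusted p = 0.141), ITGAV (-0.03) and the hyaluronan receptor CD44 (-0.02) were not called. Of 14 focal adhesion adaptors, 6 were called higher, with TNS4 in front, and 1 lower. When any 1 of the 4 GelMA libraries was left out, 1 to 3 integrins and collagen receptors were called higher and 2 lower, and 3 to 5 adaptors higher and 0 lower.

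Genes linked to mechanical signalling gave no common direction. Of 25 targets of YAP and TAZ, the coactivators that enter the nucleus on stiff substrates, 7 were called higher and 4 lower, with a median of 0.09. Over all genes, 9.58% were called higher and 9.99% lower. ANKRD1, a muscle ankyrin repeat protein often used as a target, was at 1.16 and 1.34 log2 RPKM in 7.5% GelMA, against -0.51 and -0.79 in 5% GelMA (1.90 ± 0.30, adjusted p = 0.00236). It passed the filter through the 7.5% libraries alone, so its difference follows in part from that filter. CCN1 was at 10.67 and 10.63 in 7.5% GelMA, against 10.46 and 10.44 in 5% GelMA, and CCN2 was at 8.78 and 8.90 in 7.5% GelMA, against 8.45 and 8.44 in 5% GelMA. The groups did not overlap in these secreted targets, but neither was called (0.20 ± 0.08 and 0.39 ± 0.17, adjusted p = 0.112 and 0.141). Both were called higher in a fit on the 4 PANC1 GelMA libraries alone, with adjusted p = 0.00362 for CCN1 and 0.0021 for CCN2. AMOTL1, an angiomotin that binds YAP (0.69 ± 0.08), and AJUBA (0.36 ± 0.04) rose and TGFB2, a TGF-beta ligand (-0.97 ± 0.08), fell. With any 1 of the 4 GelMA libraries left out, 4 targets were called higher and 2 or 3 lower.

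Of 20 actomyosin and SRF target genes, 7 were called lower and 0 higher, with a median of -0.10, and 4 or 5 were called lower when any 1 of the 4 GelMA libraries was left out. The share of this list called was 35%, against 19.6% of all genes. MYL9, a myosin light chain, was at 3.62 and 3.35 log2 RPKM in 7.5% GelMA, against 4.40 and 4.48 in 5% GelMA (-0.96 ± 0.14, adjusted p = 0.00127), and the tropomyosins TPM1 (-0.41 ± 0.07) and TPM4 (-0.39 ± 0.03) fell. Of 8 mechanosensitive channels, 4 were called lower, but at most 1 when any 1 of the 4 GelMA libraries was left out. The stretch-activated channel PIEZO1, at -0.14 ± 0.04, was among them (adjusted p = 0.0442, and 0.12 to 0.185 with a library left out).

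Epithelial genes differed in both directions, and proliferation genes were called no more often than all genes. Of 22 epithelial genes, 9 were called lower and 5 higher, against 9.99% and 9.58% of all genes. Among those that fell were the tight junction protein CLDN7 (-0.94 ± 0.08), P-cadherin (CDH3, -0.91 ± 0.07) and the ductal keratin KRT19 (-0.70 ± 0.10), and among those that rose were the epithelial splicing regulators ESRP1 (0.60 ± 0.12) and ESRP2 (0.32 ± 0.06). Of 12 mesenchymal genes, 3 were called lower and 0 higher, and VIM (-0.27, adjusted p = 0.344) and FN1 (-0.49, adjusted p = 0.184) were not called. In a fit on the 4 PANC1 GelMA libraries alone VIM was called lower (adjusted p = 0.00178), and FN1 only with the replicate block in that fit (adjusted p = 0.0144). Of 30 genes of G1/S and DNA replication, 2 were called higher and 2 lower, and of 29 genes of G2/M and mitosis 2 were called lower. These are 13.3% and 6.9% of the lists, against 19.6% of all genes. On leaving out any 1 of the 4 GelMA libraries, 0 to 2 epithelial genes were called higher, 0 or 1 mesenchymal gene lower and at most 1 gene of either cell cycle list in either direction. The proliferation marker MKI67 was at 8.05 and 7.95 log2 RPKM in 7.5% GelMA and at 8.07 and 8.04 in 5% GelMA, so that the groups overlapped (-0.06, adjusted p = 0.744). CDKN1A, an inhibitor of the cell cycle, rose by 0.38 ± 0.07, and CD24, a surface glycoprotein, was at 9.64 and 9.63 in 7.5% GelMA, against 9.14 and 9.09 in 5% GelMA (0.52 ± 0.08, adjusted p = 0.00131).

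Far fewer genes passed the same test in BXPC3, a more epithelial pancreatic line. There, 13 of the 14220 genes were called (0.0914%), 7 higher (0.0492%) and 6 lower (0.0422%), and 5 of the 13 were also called in PANC1. The quartiles of the log2 difference were -0.13 and 0.14 in PANC1, against -0.07 and 0.08 in BXPC3. Over these genes, which were filtered on PANC1 alone, BXPC3 replicates differed more, with an SD of 0.294 log2 in 7.5% GelMA and 0.308 in 5% GelMA. Some of the genes are very low in BXPC3, such as KCNK3 at -6.85 to -3.58 log2 RPKM. The fit gives each gene the same SE in both lines. Genes that reached 1 RPKM only in BXPC3 were not counted. The difference between the lines (PANC1 minus BXPC3), tested as its own contrast, was called for 1360 genes (9.56%), 603 positive (4.24%) and 757 negative (5.32%). Leaving out any 1 of the 4 PANC1 GelMA libraries lowered it to between 622 and 806 genes, and the BXPC3 count to 1.

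By list, 17 of 29 hypoxia genes, 14 of 18 glycolysis genes, 21 of 55 interferon response genes and 9 of 24 cholesterol synthesis genes were called more negative in PANC1, with none called more positive. Of 24 amino acid response genes, 15 were called more positive and 1 more negative. Over all genes, 5.32% were called more negative and 4.24% more positive. The median differences in PANC1 and BXPC3 were -0.64 and 0.04 for hypoxia, -0.54 and 0.09 for glycolysis, -0.64 and -0.16 for the interferon response, -0.30 and 0.02 for cholesterol synthesis and 0.50 and -0.10 for the amino acid response. Interferon response genes therefore also lay mostly below 0 in BXPC3, where none of the 55 was called. CYP1B1, a monooxygenase of estrogen and xenobiotic metabolism, was called higher in both lines (1.29 ± 0.06 in PANC1 and 0.43 in BXPC3, adjusted p = 4.02e-06 and 0.0467). The call in BXPC3 was lost on the log2(RPKM + 1) scale (adjusted p = 0.0879), and its adjusted p ran from 0.0372 to 0.156 over the alternatives. ATF3 was at 0.78 in PANC1 and -1.04 in BXPC3, and the difference of 1.83 was called (adjusted p = 0.000699, and 0.000248 to 0.00544 over the alternatives). The call of ATF3 in BXPC3 (adjusted p = 0.0336) was lost on the log2(RPKM + 1) scale (adjusted p = 0.0879) and without any 1 of the 4 PANC1 GelMA libraries (adjusted p = 0.0939 to 0.106).

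**Figure D5:**
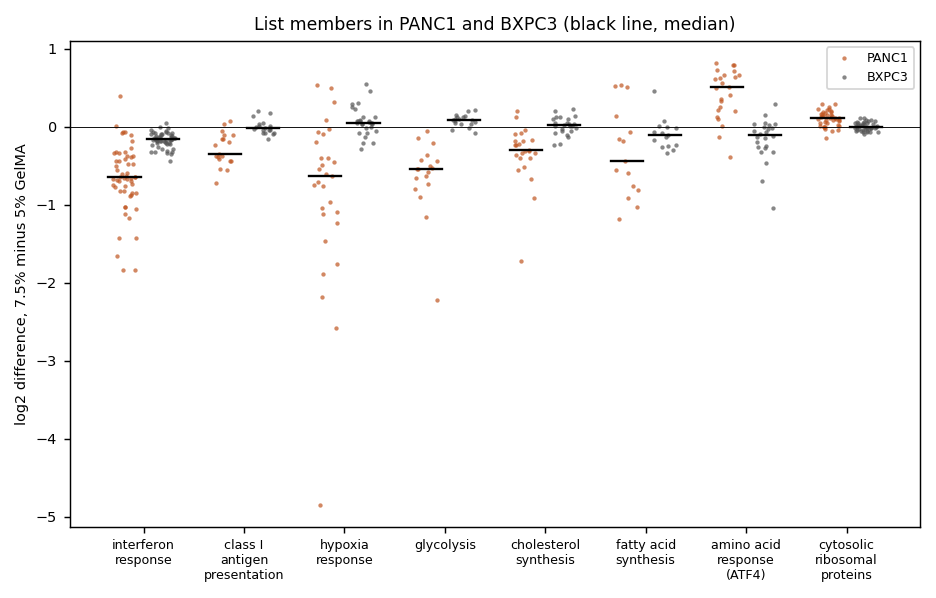
Log2 difference, 7.5% minus 5% GelMA, of each gene of 8 lists in PANC1 (orange) and BXPC3 (grey), with the list median as a black line. PANC1 genes spread well below 0 in the hypoxia, glycolysis and interferon lists and above 0 in the amino acid list, while the BXPC3 medians lie between -0.16 and 0.09.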

How the data were processed

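The authors deposited 1 table of log2 RPKM for 16299 Ensembl genes in 12 libraries, with 0 columns of per-sample values left unmapped. Per the submitters' processing notes, HISAT2 2.1.0, HTSeq and GRCh38 (hg38) were used. The offset before the log, gene lengths, strand setting and depth: not given in the sources used here. Per the labels' protocols, an RNeasy kit and poly-A capture were used. Sorted values of the 12 libraries agreed within 0.05 log2 at 13917 of 16299 ranks, which was read as quantile normalization. Symbols came from a gene name table (16250 IDs) and GENCODE 29 (49 IDs).

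A linear model of 6 group means over 12 libraries was fitted to the deposited log2 values in R 4.3.3 (limma 3.58.1, empirical Bayes with a mean-variance trend), with 6 residual and 3.89 prior degrees of freedom. Tests covered the 15794 genes that reached 1 RPKM in 2 or more libraries, with Benjamini-Hochberg adjustment over all of them, and genes were called at an adjusted p under 0.05. Errors are SEs of that fit. The code was tested on simulated data. Named genes were first the 12 highest and 12 lowest called protein-coding or long non-coding genes. Their groups did not overlap and they averaged 3 RPKM or more in either gel. To these were added up to 4 called and 2 uncalled genes of each list, and a set of followed genes. Other list members were named after their values were seen. Alternatives varied the log offset, filter, samples fitted, trend, library weights, normalization and block, and left out each of the 4 PANC1 GelMA libraries. Promoter windows came from RefSeq (GRCh38.p14), matched by symbol. The comparison, the lists and the followed genes were chosen with earlier results of these data known, so counts over lists describe and do not test them. Some list members are counted but not reported by name here.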

Additional observations from a re-analysis of the deposited data

Results flagged for a closer look

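The difference between 7.5% and 5% GelMA was itself different in the lines for 1360 genes, by limma's test of the PANC1 difference minus the BXPC3 difference. The values that follow are those differences in log2 for the leading and followed genes that passed that test. No explanation was tested, and the lines also differ in replicate spread over these genes, which were filtered on PANC1 alone.

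Genes of low oxygen and glucose use were more negative in PANC1: CA9 (-4.88), AK4 (-3.80), MIR210HG (-2.87), PPFIA4 (-2.66), ALDOC (-2.38), ANGPTL4 (-2.05) and VEGFA (-0.49). The same was found for the potassium channel gene KCNK3 (-5.03), ceruloplasmin (CP, -3.15), the chemokine CXCL2 (-2.88), PPP1R3G (-2.39), ART5 (-2.35), SLC38A3 (-2.12), IFITM10 (-1.51) and HMGCS1 (-0.63). The BXPC3 difference of KCNK3 was 2.67 log2 and was not called (adjusted p = 0.238). It rests on very low values, -3.87 and -4.27 log2 RPKM in 7.5% GelMA and -6.85 and -6.61 in 5% GelMA, and makes up more of the difference between the lines than the PANC1 value of -2.36.

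The difference was more positive in PANC1 for CYP1A1 (2.49), VIPR1 (2.22), TNS4 (1.97), ENTREP2 (1.91), GDA (1.83), PPP1R16B (1.78), EPHB1 (1.72), CEMIP (1.64), LINC00622 (1.58), FGFBP1 (1.54), PARM1 (1.54) and TNFRSF9 (1.52). Among followed genes it was more positive for the YAP targets ANKRD1 (2.36), CCN2 (1.06) and CCN1 (0.49), for CD24 (0.63) and for CDKN1A (0.38). In the fit of all 12 libraries, CCN1 and CCN2 were not called in either line. ANKRD1 entered the comparison through the 7.5% libraries of PANC1 alone, and CA9 through the 5% libraries of PANC1 alone. KCNK3 was not the only gene far below 1 RPKM in BXPC3. In the BXPC3 GelMA libraries ART5 was at -4.41 to -4.26 log2 RPKM, ENTREP2 at -4.48 to -3.78 and CA9 at -2.43 to -1.61. At such levels the BXPC3 difference depends on the unknown offset, so a different response of the lines cannot be read from these genes.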

How the results depend on the processing

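Across 16 alternatives, 0 of the 281 named genes with a value reversed a called direction, and of 187 called named genes 120 kept their call in all 16 and 67 lost it in at least 1. Of 94 named genes not called, 41 were called in at least 1 alternative, mostly in fits on PANC1 libraries alone or with library weights. Leaving out each of the 4 libraries in turn gave 1305 to 1595 called genes in PANC1, 565 to 715 higher and 740 to 880 lower, 1 in BXPC3 in every case, and 622 to 806 for the difference between the lines. Library weights (arrayWeights) gave 4216 called genes in PANC1, of them 2157 higher. A fit on the 4 PANC1 GelMA libraries alone gave 2107 higher genes, and a fit without the mean-variance trend gave 878 for the difference between the lines. In BXPC3, limma called 0 genes on the log2(RPKM + 1) scale (1366 at an unadjusted p under 0.05) and 0 on the log2(RPKM + 0.1) scale (1421 unadjusted). Deviations of same-numbered PANC1 libraries in 7.5% and 5% GelMA correlated at 0.017, so the numbers were not taken to pair them. With the replicate block, 2646 genes were called in PANC1 and 1 in BXPC3, and 3927 in PANC1 when fitted on its 4 GelMA libraries. The cause of these shifts was not tested. Fits that leave a library out also have fewer samples. Depth is unknown, differences of genes under 1 RPKM depend on the unknown offset, and a low value does not show that a transcript was absent.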

Other observations

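CYP1A1 led the rises, and genes around the aryl hydrocarbon receptor were looked up after its value had been seen. Of 8 such genes in the comparison, 4 were called higher and 1 lower, against 9.58% and 9.99% of all genes, and no test rests on this list. TIPARP, a feedback inhibitor of the receptor, was at 6.76 and 6.80 log2 RPKM in 7.5% GelMA, against 5.62 and 5.57 in 5% GelMA and 5.58 and 5.53 in collagen (1.18 ± 0.05, adjusted p = 3.12e-06). CYP1B1 was at 9.68 and 9.58 in 7.5% GelMA, against 8.39 and 8.29 in 5% GelMA and 8.08 and 8.23 in collagen. AHR, the receptor, was lower (-0.29 ± 0.06, adjusted p = 0.0107), and that call was lost without any 1 of the 4 GelMA libraries (adjusted p = 0.0564 to 0.0627). AHRR (0.10), ARNT (-0.08) and NQO1 (0.38) were not called. The core of the receptor's element, TNGCGTG on either strand, was present in 775 of 10626 promoter windows of genes in the comparison (7.29%) and in 2 of 6 windows of genes on this list (33.3%), with 0 of 2 called higher, 0 of 1 called lower and 2 of 3 not called.

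Of 17 feedback genes of the MAPK pathway, 5 were called higher and 1 lower, against 9.58% and 9.99% of all genes. FOSL1, a Fos family transcription factor, was at 7.36 and 7.44 log2 RPKM in 7.5% GelMA, against 7.03 and 6.93 in 5% GelMA (0.42 ± 0.07), and IER3 rose by 0.53 ± 0.07. Of 24 TGF-beta pathway genes, 6 were called lower and 2 higher, BMP4 (1.10 ± 0.14) and LTBP2, which binds fibrillin (0.78 ± 0.05). In total 33.3% of this list was called, against 19.6% of all genes. When any 1 of the 4 GelMA libraries was left out, 2 to 4 MAPK feedback genes were called higher and 0 lower, and 3 to 5 TGF-beta pathway genes lower. MT2A, a metal-binding protein, was at 10.65 and 10.52 in 7.5% GelMA, against 9.94 and 9.96 in 5% GelMA (0.63 ± 0.08), and SLC30A1, a zinc exporter, fell (-0.53 ± 0.04).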
